A study of Mus musculus with 18 samples.

Results

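Small proline-rich proteins are short, proline-rich and glutamine-rich proteins that keratinocytes make as they mature, and that transglutaminases cross-link to involucrin, loricrin and other precursors to build the cornified envelope, the tough protein shell under the surface of stratified squamous epithelium. Their genes (Sprr in the mouse) lie side by side in the epidermal differentiation complex and fall into the Sprr1, Sprr2, Sprr3 and Sprr4 subfamilies. Family members are also switched on in simple epithelia under stress. The urothelium of the bladder carries no cornified envelope: its surface is covered by umbrella cells with uroplakin plaques, and squamous features appear there during injury and vitamin A deficiency, since retinoids restrain squamous differentiation. The 8 genes described here, Sprr1a, Sprr1b, Sprr2d, Sprr2e, Sprr2f, Sprr2g, Sprr2h and Sprr3, were taken by symbol from a deposited count table of 46333 named genes, which holds 16 Sprr genes in all. They were named with results from these same libraries known, and may have been chosen by any of the contrasts described here, since the values behind the choice are not recorded, so their levels and differences are given as a description. No p-value is printed for a single member, although members past a threshold are named. Counts of members past the adjusted edgeR threshold stand beside the share of all genes past it, with nothing read from them. The gene lists used below were likewise chosen with earlier results of these data known, so their counts and p-values are a description.

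The libraries came from the RNA of whole bladders of wild-type female BALB/c mice aged 8 weeks, in 6 groups of 3 mice with 1 library each. The edgeR p-values set a difference against the spread between mice, estimated over all 6 groups and not only over those compared. Mice received an intraperitoneal injection of cyclophosphamide (CP, 150 mg/kg), a drug whose metabolites damage the urothelium, or of saline, and ate either a vitamin A-enriched diet or a normal diet. The groups were CP on the vitamin A diet, 1 day after injection, CP on the normal diet at 1 day, CP on the vitamin A diet at 3 days, CP on the normal diet at 3 days, saline on the vitamin A diet at 1 day and saline on the normal diet at 1 day. The enriched diet began 1 week before the injection. The sample labels describe it as 566081 UI of retinyl acetate per kilogram of diet, and the series description as a 36-fold vitamin A content in the form of retinyl palmitate. No saline bladders were collected at 3 days, so the 3-day CP groups differ from the saline groups in day as well as in drug. Mice were housed 3 to a cage, and the cage of each mouse is not given, so cage and group cannot be told apart. Libraries held 19554132 to 34598952 counts. The bladder label held in all 18 libraries, where 7 umbrella cell markers (the uroplakin genes, Krt20 and Psca) summed to between 3368 and 8763 CPM (each count divided by the library's total, per 1000000, after scaling as described with the values of Sprr1a). Markers of skin epidermis summed to 5.11 to 10.2 CPM, with Lce1b, Lce1m, Flg2 and Krt2 at 0 counts in all groups, and markers of the female genital tract to 15.8 to 31.3 CPM, with Wnt7a at 0 in all groups. Of 6 genital tract markers tested, Prap1, a gene known from uterine epithelium, was higher at 1 day after CP than in saline, with 6.40 ± 2.31 CPM against 1.87 ± 0.614 on the vitamin A diet (log2 1.78, edgeR adjusted p = 0.00165) and 7.14 ± 0.768 against 1.59 ± 0.329 on the normal diet (log2 2.16, edgeR adjusted p = 0.000641). Msx1 of the same list was called lower at 1 day after CP on the vitamin A diet, where 3 of the 6 had a positive log2 difference. On the vitamin A diet Prap1 was lower at 3 days than at 1 day (log2 -1.69, edgeR adjusted p = 0.0119, lost without mouse 2 of the 1-day group). Its part in the Sprr values was not tested.

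The Sprr genes lie within 284.7 kb of chromosome 3. In the count table (GRCm39), Sprr2e spans 92259450 to 92260756, Sprr2f 92272494 to 92273749, Sprr2g 92281222 to 92282536 and Sprr2h 92292992 to 92294631 of chromosome 3, all on the plus strand. Sprr1b (92344116 to 92346124), Sprr3 (92363809 to 92366027) and Sprr1a (92391261 to 92393188) follow on the minus strand. Sprr2g is annotated as a transcribed pseudogene and the other 7 members as protein coding. The promoter windows printed here are RefSeq sequences of another build, GRCm38.p6, of 300 bases each, from 250 bases before the annotated start to 50 bases after it, 5′ to 3′ on the gene's strand. A window was given for 7 of the 8 members, all but Sprr2g. Capitals mark matches, on either strand, to the AP-1 motif TGANTCA, the octamer motif ATGCAAAT (found here as its reverse complement ATTTGCAT) and TATAAA. Sprr2d, Sprr2e, Sprr2f and Sprr2h are shown because their windows share a layout while Sprr2d had no count and Sprr2f many, and Sprr1a and Sprr1b because they are the most and among the least abundant of the members.
Sprr2d (chr3:92338890-92339189, plus strand): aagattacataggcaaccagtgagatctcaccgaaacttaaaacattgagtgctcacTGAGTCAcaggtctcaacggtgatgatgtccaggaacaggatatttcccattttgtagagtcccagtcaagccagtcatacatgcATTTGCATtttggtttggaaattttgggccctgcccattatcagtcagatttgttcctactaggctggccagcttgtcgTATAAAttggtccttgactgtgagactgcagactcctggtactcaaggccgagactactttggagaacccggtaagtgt
Sprr2e (chr3:92351893-92352192, plus strand): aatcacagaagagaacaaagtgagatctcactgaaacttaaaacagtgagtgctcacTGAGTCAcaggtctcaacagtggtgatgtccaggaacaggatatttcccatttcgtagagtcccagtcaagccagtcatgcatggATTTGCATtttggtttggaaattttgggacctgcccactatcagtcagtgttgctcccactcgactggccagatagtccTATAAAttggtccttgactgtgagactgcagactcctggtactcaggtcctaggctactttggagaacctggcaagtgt
Sprr2f (chr3:92364937-92365236, plus strand): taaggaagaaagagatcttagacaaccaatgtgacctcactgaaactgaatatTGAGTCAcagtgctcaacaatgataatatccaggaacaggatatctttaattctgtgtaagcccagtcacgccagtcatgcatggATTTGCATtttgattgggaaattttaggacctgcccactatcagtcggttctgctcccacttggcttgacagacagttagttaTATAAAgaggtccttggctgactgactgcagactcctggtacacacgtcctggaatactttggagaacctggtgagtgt
Sprr2h (chr3:92385435-92385734, plus strand): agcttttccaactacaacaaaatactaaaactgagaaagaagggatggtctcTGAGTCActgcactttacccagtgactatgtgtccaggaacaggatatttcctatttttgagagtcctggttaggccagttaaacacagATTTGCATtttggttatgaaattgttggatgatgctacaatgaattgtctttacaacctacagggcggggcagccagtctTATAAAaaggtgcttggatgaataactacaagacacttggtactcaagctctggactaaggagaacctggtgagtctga
Sprr1a (chr3:92485832-92486131, minus strand): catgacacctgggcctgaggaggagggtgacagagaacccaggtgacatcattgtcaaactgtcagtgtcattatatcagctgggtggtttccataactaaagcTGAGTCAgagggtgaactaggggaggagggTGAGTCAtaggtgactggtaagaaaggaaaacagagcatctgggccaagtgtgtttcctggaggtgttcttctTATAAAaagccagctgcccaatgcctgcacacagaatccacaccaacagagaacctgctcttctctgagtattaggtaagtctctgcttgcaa
Sprr1b (chr3:92438730-92439029, minus strand): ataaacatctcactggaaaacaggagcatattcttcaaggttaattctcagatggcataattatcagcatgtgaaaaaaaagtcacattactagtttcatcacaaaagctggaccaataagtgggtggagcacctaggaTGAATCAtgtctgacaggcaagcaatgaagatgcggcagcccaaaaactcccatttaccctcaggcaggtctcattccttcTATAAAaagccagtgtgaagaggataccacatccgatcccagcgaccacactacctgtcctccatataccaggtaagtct

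The windows of Sprr2d, Sprr2e, Sprr2f and Sprr2h each held TGAGTCA, then ATTTGCAT, then TATAAA, in that order. TGAGTCA began at -193 in Sprr2d and Sprr2e, at -197 in Sprr2f and at -198 in Sprr2h, where -1 is the last base before the annotated start. ATTTGCAT began at -108 in Sprr2d and Sprr2e, at -112 in Sprr2f and at -109 in Sprr2h, and TATAAA at -29 in all 4. Over the 7 members with a window, the AP-1 letters matched in 6 (all but Sprr3), the octamer in those 4 and TATAAA in 7. Over all 32851 windows of the same table, 7.81% held the AP-1 letters, 1.74% the octamer and 13.6% TATAAA. The Sprr2 windows are related by descent and are not independent: Sprr2d and Sprr2e had 89.1% identical aligned bases, Sprr2e and Sprr2f 75.8% and Sprr2f and Sprr2h 61.9%. Sprr2b, Sprr2i and Sprr2k, which are not among the 8, held the same 3 matches, whereas the windows of Sprr2a1, Sprr2a2 and Sprr2a3 held none. The Sprr2a windows end within a stretch like one that lies shortly before TATAAA in the Sprr2b window. They may therefore not cover the matching positions, and no absence of these motifs near those genes is read from them. Sprr1a had TGAGTCA at -146 and at -116 and TATAAA at -43, and Sprr1b had TGAATCA at -111 and TATAAA at -30. These are matches of letters, and no binding was measured here.

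Near-identical copies can share reads, so the transcripts were compared in 100-base windows (GENCODE transcripts of the GRCm38 build). Of the windows of Sprr2e, 1.09% also occurred in another Sprr gene, Sprr2i, and none did for Sprr1a, Sprr1b, Sprr2d, Sprr2f, Sprr2g, Sprr2h and Sprr3. In 50-base windows the shared part was 10.2% for Sprr2e, 4.27% for Sprr2d and 0.714% for Sprr2f, and 0.0% for the other 5 members. By contrast 92.5% of the windows of Sprr2a1, 92.8% of those of Sprr2a2 and 36.2% of those of Sprr2a3, at 100 bases, also occurred in another Sprr gene, most often another of those 3, so their separate values are uncertain. How the authors treated reads that map to several places, and whether they counted by strand, was not stated in those sources.

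The members differed in level over several orders of magnitude. On the deposited FPKM scale, which divides by transcript length, Sprr1a averaged 6049 ± 2550 in CP bladders on the vitamin A diet and 4885 ± 1134 on the normal diet at 1 day (SD, n = 3 in each group). Sprr2f, the next member, averaged 470.0 ± 291.0 FPKM on the vitamin A diet and 209 ± 133 on the normal diet at the same time, and Sprr2g 72.4 ± 48.4 and 27.4 ± 17.95 FPKM on those diets. Sprr2h, Sprr2e, Sprr1b and Sprr3 averaged at most 3.71, 1.33, 0.639 and 0.418 FPKM in any group. Sprr2d had 0 counts in all 18 libraries, which allows up to 0.0303 to 0.0497 CPM per group (3 counts over a group's 3 libraries, counting error only). Sprr1a carried 51.7% to 68.2% of all counts on the 16 Sprr genes in a library, and most of the rest fell on Sprr2a3, with 24.3% to 41.9%. All 16 genes together took 0.326% to 1.195% of a library's counts.

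**Figure D1:**
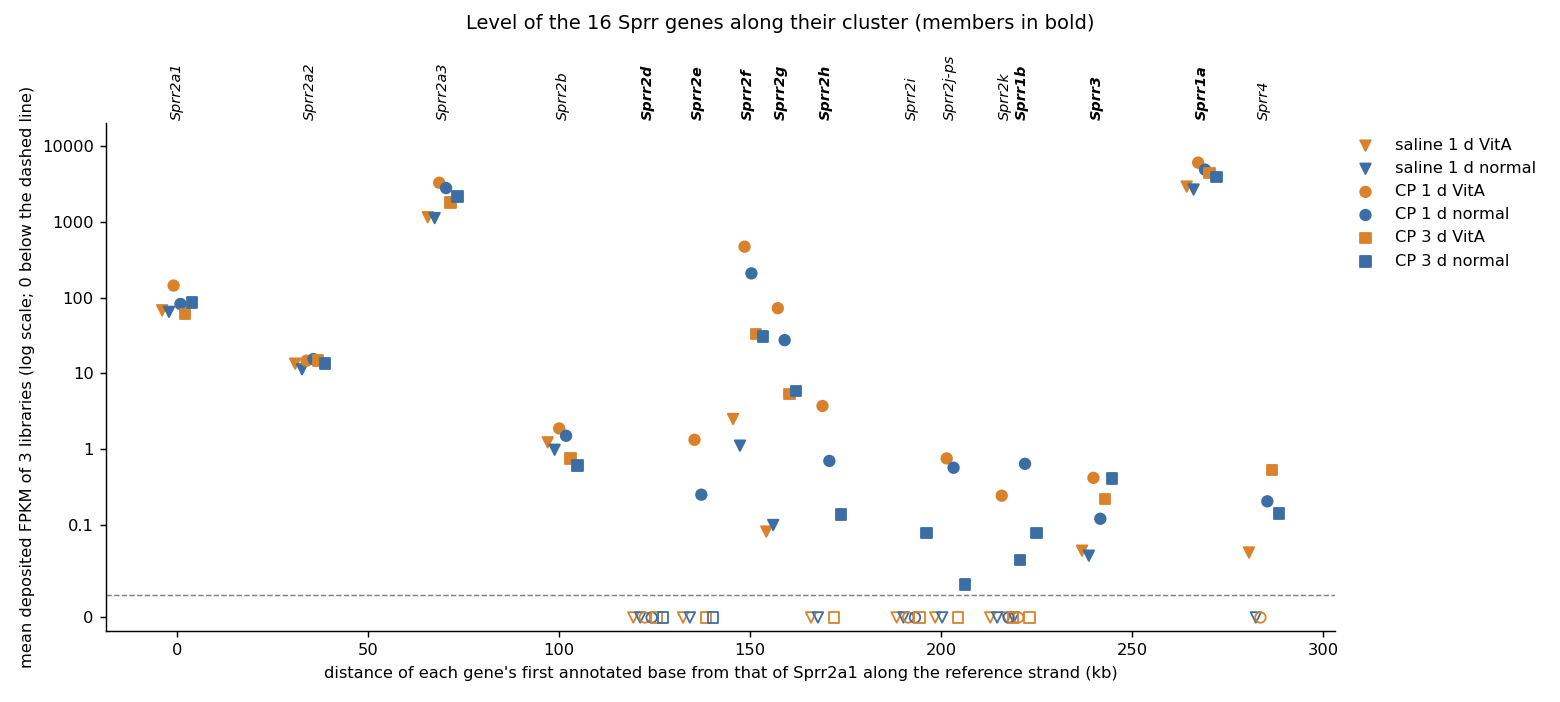
Mean deposited FPKM of the 16 Sprr genes in each group (3 libraries each, log axis, 0 below the dashed line) against the distance of each gene's first annotated base from that of Sprr2a1 along the reference strand, with members in bold. Sprr1a and Sprr2a3 lie at the top in every group, Sprr2f and Sprr2g are spread widely between groups, and the Sprr2d points all lie at 0.

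Sprr1a, the most abundant member, is a cornified envelope precursor that is also known as a gene of regenerating neurons and stressed heart muscle. At 1 day after CP its TMM-scaled CPM (after edgeR's TMM scaling of library sizes) were 3228, 7159 and 4086 on the vitamin A diet and 4037, 2988 and 4811 on the normal diet. Saline bladders had 2464, 2346 and 2223 CPM on the vitamin A diet and 2208, 2046 and 2130 on the normal diet. Every CP bladder at 1 day thus lay above every saline bladder of its diet, and the saline values lay close together. No share of all genes separated in this way is given, for Sprr1a or for the members below. Nothing is therefore read from groups that do not overlap.

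The fitted log2 difference of Sprr1a between CP at 1 day and saline was 1.04 (SE 0.29) on the vitamin A diet, a 2.06-fold difference, and 0.89 (SE 0.29), a 1.85-fold difference, on the normal diet. At 3 days its CPM were 2193, 3612 and 4831 on the vitamin A diet and 3995, 2591 and 2869 on the normal diet. The normal-diet values were still above all saline values of that diet, while the lowest vitamin A value lay below all 3 saline values of its diet. The log2 differences from saline were then 0.60 (SE 0.29) on the vitamin A diet and 0.57 (SE 0.29) on the normal diet. By group mean the order was CP at 1 day on the vitamin A diet (4824 CPM), CP at 1 day on the normal diet (3945), CP at 3 days on the vitamin A diet (3545), CP at 3 days on the normal diet (3151), saline on the vitamin A diet (2344) and saline on the normal diet (2128). Among the 4 CP groups each neighbour in that order overlapped the next. The 2 saline groups did not overlap, and their means differed by 0.14 on the log2 scale (SE 0.29, vitamin A over normal).

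**Figure D2:**
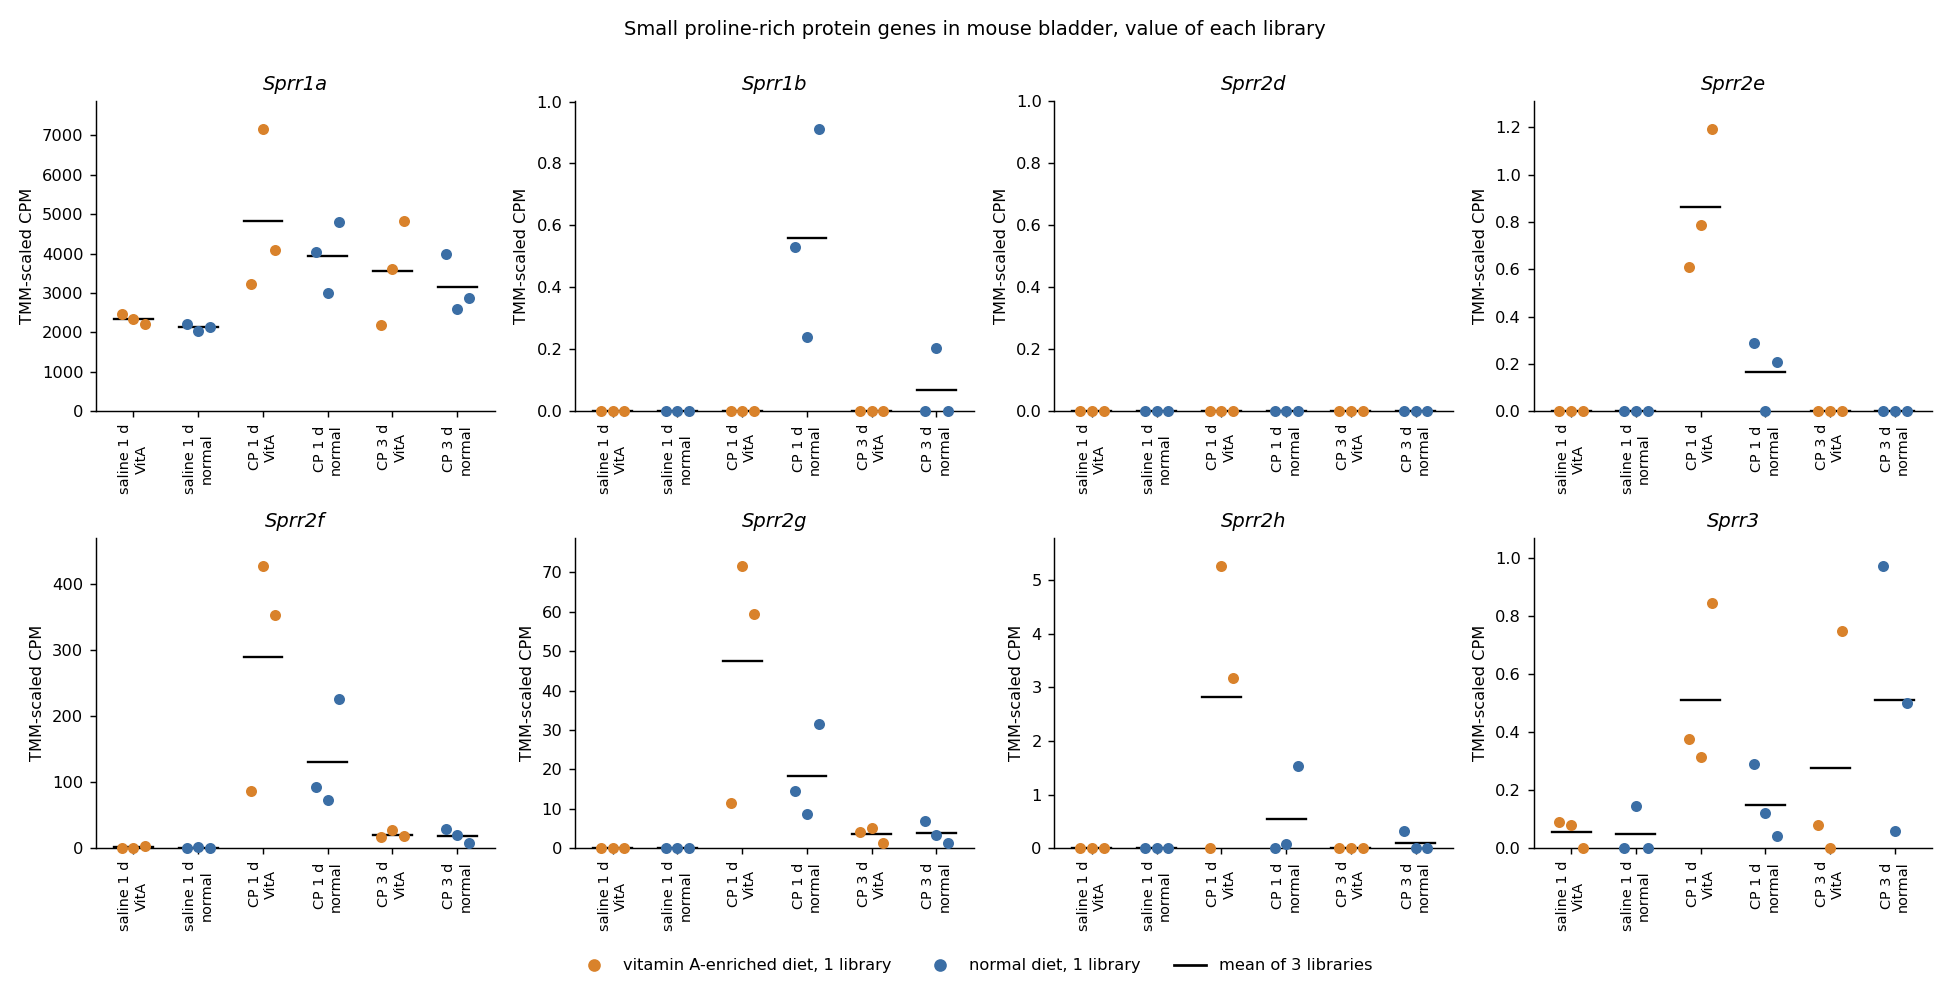
TMM-scaled CPM of the 8 members in each of the 18 libraries (linear axes that differ between panels, points for libraries, bars for the mean of 3), with saline at 1 day, CP at 1 day and CP at 3 days from left to right and the vitamin A diet left of the normal diet. By group mean, Sprr2f, Sprr2g, Sprr2h and Sprr2e are highest at 1 day after CP on the vitamin A diet. There the points of Sprr2f, Sprr2g and Sprr2h overlap those of the normal diet. Sprr1b has counts in CP bladders on the normal diet only, and Sprr2d has none.

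Sprr2f and Sprr2g were near the floor in saline bladders and prominent at 1 day after CP. Sprr2f, a member known in mouse uterus for its response to oestrogen, had 86.2, 426.4 and 352.4 CPM at 1 day after CP on the vitamin A diet and 92.2, 72.9 and 225.0 on the normal diet. In saline bladders it had 0.485, 0.158 and 3.97 CPM on the vitamin A diet and 0.493, 1.17 and 0.393 on the normal diet. The lowest CP bladder of either diet was therefore many times above the highest saline bladder.

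On the log2 scale the fitted difference of Sprr2f between CP at 1 day and saline was 7.61 (SE 1.01, 195-fold) on the vitamin A diet and 7.63 (SE 1.07, 198-fold) on the normal diet. The difference of those differences between diets was -0.02 (SE 1.12). At 3 days Sprr2f had 16.9, 27.0 and 17.8 CPM on the vitamin A diet and 29.7, 20.3 and 7.19 on the normal diet. These 3-day values lay below every 1-day CP value of the same diet and above every saline value. Against 1 day the 3-day log2 difference was -3.81 (SE 0.81) on the vitamin A diet and -2.77 (SE 0.77) on the normal diet, and against saline it was 3.80 (SE 0.91) and 4.87 (SE 1.02) on those diets.

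Sprr2g followed the same course at a lower level. It had 11.5, 71.6 and 59.4 CPM at 1 day after CP on the vitamin A diet and 14.5, 8.63 and 31.7 on the normal diet. Saline bladders held 0, 2 and 2 counts on the vitamin A diet and 3, 1 and 0 on the normal diet. The groups were again apart on either diet, with saline almost empty.

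The fitted log2 difference of Sprr2g between CP at 1 day and saline was 9.79 (SE 1.09) on the vitamin A diet and 8.25 (SE 1.09) on the normal diet, both set against only 4 counts in a saline group. Without mouse 1 of the normal-diet saline group the normal-diet value was 9.60. At 3 days Sprr2g had 4.18, 5.03 and 1.35 CPM on the vitamin A diet and 6.84, 3.32 and 1.44 on the normal diet, with log2 differences from 1 day of -3.77 (SE 0.71) on the vitamin A diet and -2.23 (SE 0.66) on the normal diet. Sprr2g counts were 11.8% to 16.9% of the Sprr2f counts in the 6 CP bladders at 1 day and 7.54% to 24.7% in the 6 at 3 days. No 100-base window of either transcript occurs in the other, although the aligned transcripts were 72.9% identical.

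**Figure D3:**
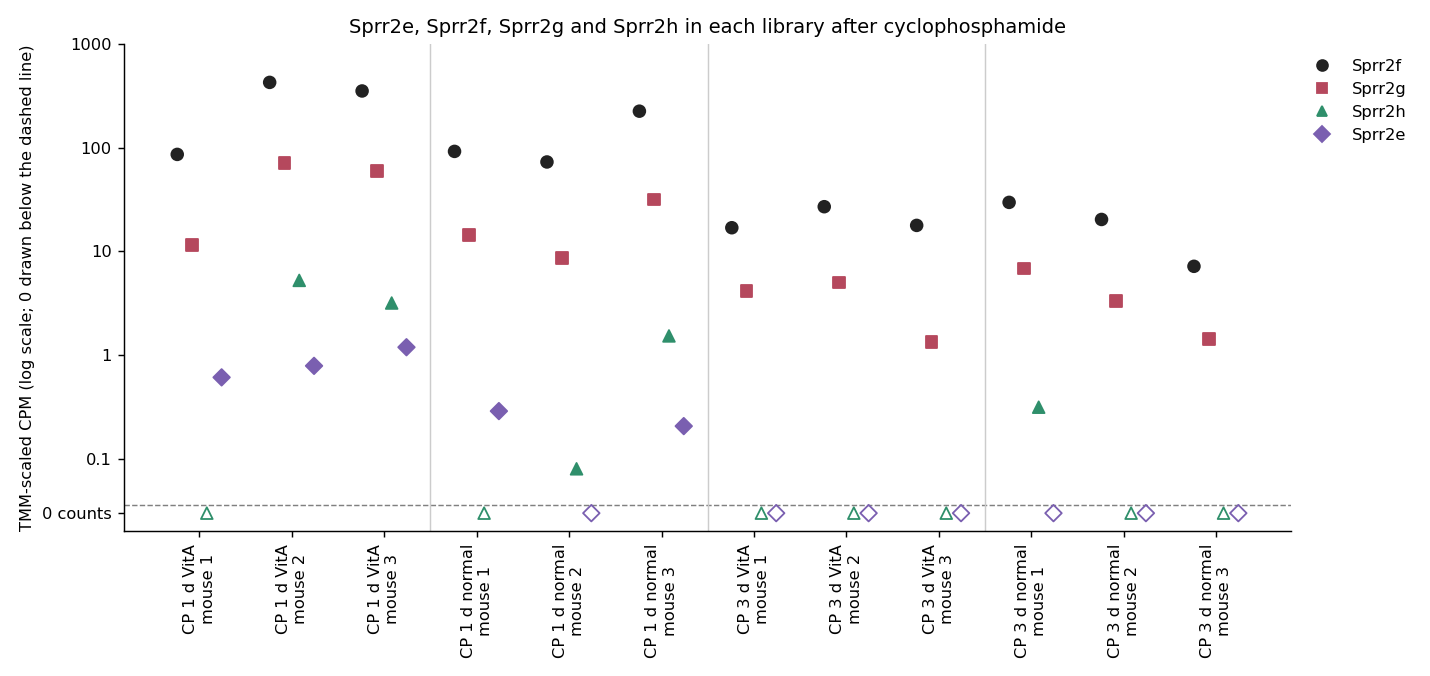
TMM-scaled CPM of Sprr2e, Sprr2f, Sprr2g and Sprr2h in each CP bladder (log axis, open symbols below the dashed line for 0 counts), with 1 day left of 3 days and the vitamin A diet left of the normal diet. Mice 2 and 3 of the vitamin A group and mouse 3 of the normal group at 1 day are the highest for Sprr2f, Sprr2g and Sprr2h alike, and Sprr2e has counts at 1 day only.

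Sprr2h and Sprr2e, also cornified envelope precursors of the Sprr2 subfamily, had low counts that were concentrated at 1 day after CP. Sprr2h had 0, 100 and 64 counts on the vitamin A diet and 0, 2 and 37 on the normal diet at 1 day. It had 0 counts in all 6 saline bladders, 0 in the 3 vitamin A bladders at 3 days, and 11, 0 and 0 in the normal-diet bladders at 3 days. The bladder with no Sprr2h reads on the vitamin A diet at 1 day was also the lowest of its group for Sprr2f and Sprr2g, so the groups overlapped with saline.

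Summed over 3 libraries, Sprr2h at 1 day after CP was at least 74.6-fold above saline on the vitamin A diet and at least 13.8-fold on the normal diet, with saline set to 3 counts over its group. For Sprr2e the counts at 1 day after CP were 13, 15 and 24 on the vitamin A diet and 6, 0 and 5 on the normal diet. No other group had a Sprr2e count, at 3 days or in saline. Sprr2e was thus at least 23.7-fold above saline on the vitamin A diet and at least 3.88-fold on the normal diet, and at 3 days at least 23.1-fold and 5.19-fold below 1 day on those diets. The vitamin A values of Sprr2e at 1 day lay above all normal-diet values, with a fitted log2 difference of 2.37 (SE 1.3). With 3 mice against 3, an exact test can give a p of 0.1 at lowest, which applies also to Sprr1b and Sprr3 below. No share of all genes separated in this way is given, so nothing is read from it.

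Sprr1b, the close relative of Sprr1a that marks squamous differentiation of airway and epidermal keratinocytes and is repressed by retinoids in human airway cells, had reads on the normal diet only. At 1 day after CP it had 0, 0 and 0 counts on the vitamin A diet and 11, 6 and 22 on the normal diet. At 3 days it had 0, 0 and 0 counts on the vitamin A diet and 0, 7 and 0 on the normal diet, and all 6 saline bladders had 0. The 2 diets did not overlap at 1 day.

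The 39 counts of Sprr1b in the normal-diet group at 1 day put the vitamin A group at least 11.3-fold lower, and the normal-diet CP group at least 13.8-fold above its saline group. These counts were below the filter of the model across genes, so Sprr1b was not fitted. In the authors' deposited table of this comparison Sprr1b is listed with a log2 of vitamin A over normal of -5.94, and Sprr2e with a log2 of 2.4, and neither passed the adjusted threshold in that deposited table. Sprr1a, whose transcript aligned to Sprr1b with 68.0% identity, did not share a 50-base window with it.

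Sprr3, known as an abundant envelope precursor of the oesophagus and mouth, had few reads anywhere. At 1 day after CP it had 8, 6 and 17 counts on the vitamin A diet and 6, 3 and 1 on the normal diet. At 3 days it had 2, 0 and 24 counts on the vitamin A diet and 34, 2 and 15 on the normal diet, and saline bladders had 3, 2 and 0 on the vitamin A diet and 0, 3 and 0 on the normal diet. In CPM the 3 vitamin A bladders at 1 day lay above the 3 normal-diet bladders, with a log2 difference of 1.76 (SE 1.37). Of the 26 counts of the vitamin A group at 3 days, 24 came from mouse 3. The ratio of Sprr3 between CP at 3 days and saline on the normal diet was 12.7, with a 95% counting interval of 4.11 to 63.7. That interval covers counting error only, not the spread between mice. Of the 51 counts at 3 days, 34 came from mouse 1, and the groups overlapped. The fitted log2 difference was 3.40 (SE 1.54), which was not called.

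Over the members, 6 of 8 passed the filter on low counts, Sprr1b and Sprr2d being left out. EdgeR's quasi-likelihood test with Benjamini-Hochberg adjustment over 19323 genes called a gene at an adjusted p below 0.05. At 1 day after CP against saline, 5 members were called higher on the vitamin A diet (Sprr1a, Sprr2e, Sprr2f, Sprr2g and Sprr2h) and 2 on the normal diet (Sprr2f and Sprr2g), with none lower. Of all genes tested, 19.3% were called on the vitamin A diet in either direction (10.2% higher, 9.05% lower) and 11.8% on the normal diet (7.26% higher, 4.49% lower). The same 5 members had an unadjusted p below 0.05 on either diet, beside 6163 genes on the vitamin A diet and 5017 on the normal diet. DESeq2 called 3 members, Sprr1a, Sprr2f and Sprr2g, on either diet. On the vitamin A diet the count of 5 came to 3 without mouse 2 or mouse 3 of the CP group or mouse 1 of the saline group, and to 2 without mouse 2 or mouse 3 of the saline group, Sprr2f and Sprr2g being called each time. At 3 days against saline, 2 members were called higher on either diet (Sprr2f and Sprr2g), beside 5.98% of all genes on the vitamin A diet (4.32% higher, 1.67% lower) and 10% on the normal diet (6.74% higher, 3.3% lower). At 3 days against 1 day, the same pair was called lower on the vitamin A diet, beside 4.24% of all genes (1.69% lower). Without mouse 2 or 3 of the 1-day group or mouse 1 or 2 of the 3-day group, Sprr2g alone was called. When only the groups compared were fitted, Sprr2f alone was called. Likewise, at 3 days against saline on the vitamin A diet, Sprr2g alone was called without mouse 2 of the CP group or mouse 1 or 2 of the saline group. At 3 days against 1 day on the normal diet, 0 members were called, beside 1.44% of all genes (1.22% higher, 0.217% lower). However, 3 members had an unadjusted p below 0.05, beside 2184 genes, and DESeq2 called 1 member, Sprr2f.

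**Figure D4:**
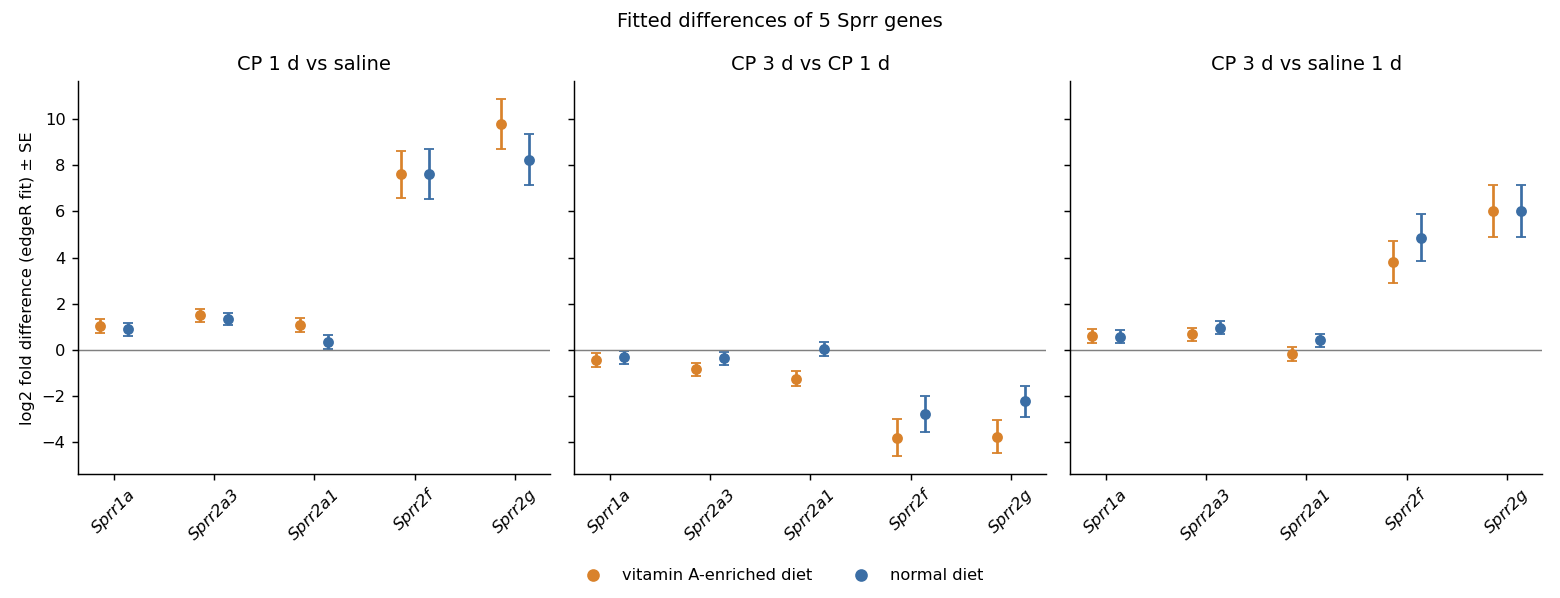
Fitted log2 differences with their standard errors (edgeR, 3 libraries per group) for 3 members, Sprr1a, Sprr2f and Sprr2g, and for Sprr2a3 and Sprr2a1, in CP at 1 day over saline, CP at 3 days over CP at 1 day, and CP at 3 days over saline at 1 day, with the vitamin A diet left of the normal diet. Sprr2f and Sprr2g lie at 7.61 to 9.79 above saline at 1 day and 3.80 to 6.02 above it at 3 days, against 0.89 and 1.04 for Sprr1a at 1 day.

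Between diets, the 3 most abundant members had overlapping values after CP. At 1 day after CP, Sprr2f was 1.15 higher on the log2 scale on the vitamin A diet than on the normal diet (SE 0.73), Sprr2g 1.38 higher (SE 0.63) and Sprr1a 0.29 higher (SE 0.29), with overlapping groups for each. In saline bladders Sprr2f differed by 1.17 (SE 1.17), and at 3 days by 0.10 (SE 0.74). No member was called between diets in saline bladders, at 1 day or at 3 days, beside 0.0104%, 0.466% and 0.00518% of all genes (at 1 day, 0.238% higher and 0.228% lower). At an unadjusted p below 0.05 the count was 0 in saline, 1 at 1 day (Sprr2g) and 0 at 3 days, beside 730, 2145 and 727 genes. DESeq2 called 0 members in each. Whether the response to CP differed between diets was tested as an interaction, for the 6 members that passed the filter on low counts. Of these, 0 passed, beside 0.0% of all genes, both for CP at 1 day and for 3 days against 1 day. Sprr1b was not fitted. Sprr2e and Sprr2h had 0 counts in saline on either diet, and Sprr2e also at 3 days. An interaction that rests on those empty groups cannot decide for these members. At an unadjusted p below 0.05 the interactions held 0 members and 1505 genes for CP at 1 day, and 0 members and 1732 genes for the time course. DESeq2 called 0 members there, and 120 genes for CP at 1 day and 88 for the time course.

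The summed members show the weight of Sprr1a. The 8 members together took 0.343% to 0.750% of a library's counts at 1 day after CP on the vitamin A diet and 0.309% to 0.501% on the normal diet, against 0.225% to 0.236% in saline bladders on the vitamin A diet and 0.202% to 0.219% on the normal diet. Sprr2f, Sprr2g and Sprr2h together summed to 97.7 to 503 CPM at 1 day after CP on the vitamin A diet and 81.6 to 258 on the normal diet, to 19.2 to 32.0 and 8.63 to 36.9 on those diets at 3 days, and to 0.237 to 4.05 and 0.393 to 1.21 on those diets in saline bladders. In whole bladder tissue, more cells that express a gene and more RNA per cell cannot be told apart. The markers of basal urothelium, a list of 7 that includes Krt5 and Krt14, summed to 4602 to 6752 CPM in the vitamin A group and 4387 to 5299 in the normal-diet group at 1 day after CP, against 1383 to 1605 and 1979 to 2161 in saline on those diets. The 7 umbrella cell markers summed to 3368 to 5204 CPM in the vitamin A group and 5543 to 7240 in the normal-diet group at 1 day, against 8238 to 8763 and 8468 to 8710 in saline on those diets. The 8 general epithelial markers summed to 6960 to 13220 CPM in the vitamin A group and 7997 to 9468 in the normal-diet group at 1 day, against 5279 to 5482 and 5404 to 5747 in saline on those diets. The 5 smooth muscle markers summed to 11060 to 20360 CPM in the vitamin A group and 10740 to 18210 in the normal-diet group at 1 day, against 18830 to 28600 and 21640 to 27850 in saline on those diets. The 6 macrophage markers summed to 205 to 338 CPM in the vitamin A group and 288 to 375 in the normal-diet group at 1 day, against 199 to 344 and 206 to 237 in saline on those diets. Cd68 of that list rose by 1.35 on the log2 scale on the vitamin A diet (edgeR adjusted p = 0.00108) and by 1.54 on the normal diet (0.000656). On the vitamin A diet Csf1r was called lower, and 2 of the 6 had a positive log2 difference (median -0.14). On the normal diet Mrc1 was also called higher, and 4 of the 6 had a positive log2 difference (median 0.6). The part of these shifts in the Sprr values was not tested. In the vitamin A group at 1 day, mouse 1 had the lowest epithelial sum (6960 CPM, against 13220 in mouse 2 and 9571 in mouse 3) and the lowest Sprr2f and Sprr2g, while mouse 3, whose share of mitochondrial counts was 3.82% against 1.68% to 2.98% in the other libraries, was second highest for both. The 3 bladders with the most Sprr2f, Sprr2g and Sprr2h, mice 2 and 3 of the vitamin A group and mouse 3 of the normal-diet group, also had the highest sums of 8 neutrophil markers, at 18.5, 31.8 and 13.8 CPM. The other CP bladders at 1 day had 7.62 CPM on the vitamin A diet and 5.203 and 5.46 on the normal diet, against 3.15 to 5.25 and 2.51 to 2.91 in saline on those diets, with Camp at 0 counts in all 4 of these groups. Whether these cells had a part in the Sprr values was not tested.

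Of the other 8 Sprr genes, 5 passed the filter. Sprr2a3, the second most abundant Sprr gene and like the members an envelope precursor, rose at 1 day after CP on either diet. It averaged 2824 ± 888 CPM in CP bladders on the vitamin A diet against 994.9 ± 142 in saline bladders, a log2 difference of 1.5 (SE 0.28, edgeR adjusted p = 0.000851). On the normal diet it averaged 2430.0 ± 24.5 CPM against 963 ± 21.6 in saline bladders, a log2 difference of 1.34 (SE 0.28, edgeR adjusted p = 0.00392). At 3 days it was still above saline on the normal diet (log2 0.96, edgeR adjusted p = 0.0322), a call that was lost without mouse 1 or 3 of the CP group or without any of the saline mice. On the vitamin A diet the 3-day value was 0.67 (edgeR adjusted p = 0.186), with overlapping groups.

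Sprr2a1 rose at 1 day on the vitamin A diet, with 516 ± 109 CPM against 244 ± 102 in saline bladders (a 2.11-fold difference, edgeR adjusted p = 0.0183), and was lower at 3 days than at 1 day (log2 -1.24, edgeR adjusted p = 0.0285). The first call was lost without mouse 2 of the CP group or mouse 1 or 2 of the saline group, the second without mouse 2 or 3 of the 1-day group or mouse 1 or 2 of the 3-day group, and both without the filter on low counts. The second was also lost when only the groups compared were fitted (log2 -1.26, adjusted p = 0.101). On the normal diet Sprr2a1 had 298 ± 141 CPM at 1 day against 231.9 ± 37.7 in saline bladders (log2 0.36, edgeR adjusted p = 0.492), and the interaction with diet did not pass (edgeR adjusted p = 0.743). Sprr2a2 and Sprr2b were not called in any comparison. Sprr2j-ps, a transcribed pseudogene, had 0, 13 and 17 counts at 1 day after CP on the vitamin A diet and 4, 10 and 14 on the normal diet, and 0 counts in saline, with 1 count in 1 bladder at 3 days. It passed on the vitamin A diet (edgeR adjusted p = 0.0366, lost without mouse 2 or 3 of the CP group or any saline mouse) and not on the normal diet (0.0718). Sprr2k, Sprr2i and Sprr4 had at most 9, 5 and 8 counts in any library. Summed over the 12 Sprr2 genes, which avoids the split among near-identical copies, CP at 1 day was above saline by 1.53 on the log2 scale on the vitamin A diet and by 1.25 on the normal diet.

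The proteins that Sprr proteins are built in with were followed through a list of 43 other cornified envelope genes in the table, of which 16 passed the filter. This list and those below were chosen with earlier results known, and nothing is read from their counts beside the share of all genes. In such counts, rose and fell mean called higher and lower at the adjusted threshold. At 1 day after CP, 6 of those 16 rose on the vitamin A diet and 6 on the normal diet, and none fell. Beside them, 10.2% and 7.26% of all genes were higher on those diets. Of the 16, 11 had a positive log2 difference on the vitamin A diet and 15 on the normal diet. The median log2 difference of the 16 was 0.19 on the vitamin A diet and 0.43 on the normal diet, against -0.012 and -0.001 over all genes on those diets. Dmkn, which encodes the secreted keratinocyte protein dermokine, rose by 4.33 on the log2 scale on the vitamin A diet (edgeR adjusted p = 5.19e-07) and by 3.02 on the normal diet (1.43e-05). Sbsn, suprabasin, averaged 56.0 ± 11.2 CPM at 1 day after CP on the vitamin A diet against 18.7 ± 4.66 in saline (log2 1.58, edgeR adjusted p = 8.57e-05), and 104 ± 27.3 CPM against 19.9 ± 2.39 on the normal diet (log2 2.39, edgeR adjusted p = 7.13e-06). Csta1, which encodes stefin A, a cysteine protease inhibitor of the envelope, averaged 3.24 ± 1.37 CPM in the vitamin A group against 0.152 ± 0.0526 in saline (edgeR adjusted p = 0.000662), and 1.12 ± 0.902 CPM in the normal-diet group against 0 counts in saline (edgeR adjusted p = 0.000466). Ivl, involucrin, the scaffold of the envelope, averaged 650.5 ± 230.0 CPM at 1 day after CP on the vitamin A diet against 350.9 ± 34.1 in saline, and 489 ± 28.9 CPM against 263 ± 63.0 on the normal diet. It rose by 0.89 on the log2 scale on either diet (edgeR adjusted p = 0.024 with vitamin A, 0.0352 without), a call lost on the vitamin A diet without mouse 2 or 3 of the CP group or any saline mouse, and on the normal diet without any of the CP mice or mouse 2 or 3 of the saline group. S100a11, a calcium-binding protein of the envelope, rose by 1.71 on the log2 scale on the vitamin A diet (edgeR adjusted p = 2.05e-05) and by 1.42 on the normal diet (0.000241).

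Of the 6 transglutaminases tested, which include the enzymes that cross-link Sprr proteins, 1 rose at 1 day after CP on either diet and none fell. Of all genes tested, 10.2% were higher on the vitamin A diet and 7.26% on the normal diet. The 1 transglutaminase was Tgm1, the membrane-bound enzyme of keratinocytes, with 14.8 ± 4.83 CPM on the vitamin A diet against 1.70 ± 0.904 in saline (log2 3.13, edgeR adjusted p = 0.000145). On the normal diet Tgm1 had 5.63 ± 1.11 CPM against 0.921 ± 0.675 in saline (log2 2.55, edgeR adjusted p = 0.00227). At 1 day its log2 difference between diets was 1.39 (vitamin A over normal, edgeR adjusted p = 0.187), which did not pass.

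Of 10 squamous and wound keratins tested, 6 rose at 1 day after CP on the vitamin A diet and 5 on the normal diet, and none fell. Of all genes tested, 10.2% and 7.26% were higher on those diets. Among the 10, 7 had a positive log2 difference on the vitamin A diet and 9 on the normal diet. Of 3 skin epidermis markers tested, 0 were called on either diet. Of those 3, 0 had a positive log2 difference on the vitamin A diet (median -0.82) and 3 on the normal diet (median 0.08). Krt6a, a keratin of wounded and stratified epithelium, averaged 37.9 ± 29.4 CPM in the vitamin A group against 1 count in the saline group (edgeR adjusted p = 4.49e-05), and 3.20 ± 2.68 CPM in the normal-diet group against 3 counts in saline (edgeR adjusted p = 0.00795, lost without mouse 3 of the saline group). Krt13, a keratin of mucosal squamous epithelium, rose by 5.81 on the log2 scale on the vitamin A diet (edgeR adjusted p = 2.38e-06) and by 3.73 on the normal diet (0.000268). Krt14, of basal cells, rose by 5.13 (edgeR adjusted p = 0.000186) and 4.30 (0.00165) on those diets, and Krt4, the partner of Krt13, by 3.16 (0.000161) and 4.33 (4.83e-05). Krt13 was also the 1 gene of the list called between diets at 1 day after CP, with 32.6 ± 17.6 CPM on the vitamin A diet and 6.79 ± 3.38 on the normal diet (log2 2.26, edgeR adjusted p = 0.0415). That call was lost without mouse 2 or 3 of the vitamin A group or without any of the normal-diet mice.

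Among 31 transcription factors with known roles in epithelial or squamous differentiation, 8 rose and 3 fell at 1 day after CP on the vitamin A diet, and 5 rose and 1 fell on the normal diet. Of all genes tested, 10.2% were higher and 9.05% lower on the vitamin A diet, and 7.26% and 4.49% on the normal diet, so the factors that fell were at about the share of all genes. Fosl1, which encodes the AP-1 subunit Fra-1, averaged 17.4 ± 6.89 CPM in the vitamin A group against 0.360 ± 0.337 in saline (log2 5.53, edgeR adjusted p = 4.45e-06), and 8.10 ± 1.66 CPM in the normal-diet group against 0.263 ± 0.0999 in saline (log2 4.99, edgeR adjusted p = 4.77e-05). Elf3, an epithelial ETS factor known from human cells to bind SPRR promoters, rose by 0.89 on the log2 scale on the vitamin A diet (edgeR adjusted p = 0.00897, lost without mouse 2 of the CP group) and by 1.03 on the normal diet (edgeR adjusted p = 0.00609). Elf5, a related ETS factor, fell by 1.38 on the vitamin A diet (edgeR adjusted p = 0.000632) and had a log2 difference of -0.49 on the normal diet (0.233). In saline bladders Elf5 was higher on the vitamin A diet, with 61.5 ± 10.7 CPM against 16.7 ± 2.79 on the normal diet (log2 1.88, edgeR adjusted p = 0.00602, lost without mouse 1 or 3 of the normal-diet group or mouse 2 of the vitamin A group). Fos (log2 2.74, edgeR adjusted p = 0.00415) and Junb (0.95, 0.00128), which encode other AP-1 subunits, rose on the vitamin A diet. On the normal diet Stat3 rose by 0.81 (edgeR adjusted p = 5.94e-05) and Cebpb by 0.92 (0.0232, lost without mouse 2 or 3 of the CP group or any saline mouse). Klf4, a factor of epidermal barrier formation, fell by 0.74 on the normal diet (edgeR adjusted p = 0.0138, lost without mouse 3 of either group) and had a log2 difference of -0.23 on the vitamin A diet (0.426).

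Of 13 genes of retinoic acid synthesis, storage and response tested, 2 were higher on the vitamin A diet than on the normal diet at 1 day after CP and none lower. Of all genes tested, 0.238% were higher and 0.228% lower. The first of the 2 was Cyp26b1, a retinoic acid hydroxylase (log2 3.32, edgeR adjusted p = 0.0059, lost without mouse 1 of the normal-diet group). The other was Aldh1a3, which encodes an enzyme that makes retinoic acid (log2 2.09, edgeR adjusted p = 0.0244, lost without mouse 1 or 3 of the normal-diet group or mouse 3 of the vitamin A group). In saline bladders Cyp26b1 was higher by 3.26 on the vitamin A diet (edgeR adjusted p = 0.0035, lost without mouse 1 of the normal-diet group).

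At 3 days against 1 day on the vitamin A diet, 3 of 16 envelope genes and 4 of 10 keratins fell and none rose. Of all genes tested, 1.69% were lower and 2.55% higher. The calls of those 4 keratins (Krt6a, Krt13, Krt78 and Krt80) and of S100a11 were each lost without mouse 2 of the 1-day group, and each without mouse 3 of it. Sbsn fell by 1.24 on the log2 scale on the vitamin A diet (edgeR adjusted p = 0.00492) and by 2.01 on the normal diet (edgeR adjusted p = 0.000222), and Dmkn by 2.36 (0.000569) and 1.86 (0.00381) on those diets. On the normal diet those were the 2 envelope genes called, and 0 of 10 keratins were, beside 0.217% of all genes that were lower. Tgm1 had a 3-day log2 difference of -0.81 (edgeR adjusted p = 0.328) on the vitamin A diet and 0.41 (0.811) on the normal diet.

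The genes whose levels ran most like the members over the 18 libraries were ranked by Pearson's correlation with the mean centred log2 CPM of the members. They were Akr1b8 (r = 0.978), Ercc1 (0.962), Col17a1 (0.960), Adss (0.960), Ldhd (0.956), P4hb (0.956), S100a11 (0.955), Procr (0.955), Acsbg1 (0.954) and Anxa10 (0.951). These are the top ranks of all genes tested, over libraries that share the split between CP and saline, and are given as a description. After group means were removed the correlations of the same 10 genes were 0.500 to 0.895. For single members the most alike gene was Sprr2g for Sprr2f and Sprr2f for Sprr2g (r = 0.968), Mfsd5 for Sprr1a (0.943), Arl14 for Sprr2e (0.905), H13 for Sprr2h (0.893), Tpmt for Sprr1b (0.849) and Gm40616 for Sprr3 (0.836).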

How the data were processed

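RNA-seq counts, as deposited by the authors, were raw reads per gene in 18 libraries. Per the submitters' processing notes, HISAT2 2.0.5, featureCounts 1.5.0-p3, DESeq2 1.20.0 and GRCm39 were used. The roles of these tools, the read length and the strandedness were not stated there. FPKM values were deposited by the authors beside the counts. The authors' deposited tables of vitamin A against normal diet also hold a log2 fold change, p-values and a size-factor-scaled signal per gene, which was not tested here. Their log2 ran normal over vitamin A and its sign was turned here.

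Of 60750 features, 14417 without a name, with 0.474% to 0.810% of the counts of a library, were left out. The 19323 genes that passed filterByExpr (minimum count 10, minimum total 15) were fitted with edgeR 4.0.16 (robust quasi-likelihood test, TMM scaling, 1 mean per group, 12 residual degrees of freedom, R 4.3.3), with two-sided p-values adjusted by Benjamini-Hochberg in each of 11 contrasts and a threshold of 0.05. Log2 CPM used a prior count of 2. Groups with 0 counts were set to a floor of 3 counts over the group, and ratios with 1 to 3 counts carry an exact 95% Clopper-Pearson interval. Floors and intervals cover counting error only. Depth was 19554132 to 34598952 counts per library. The test was checked on simulated data for CP at 1 day against saline on the normal diet. It recovered 38 of 100 genes changed 2-fold and 64 of 100 changed 4-fold, with 4 false calls. A gene that was not called can therefore still differ. Alternatives were DESeq2 1.42.0, RLE scaling, no filter, a fit to only the groups compared, FPKM, a replicate block and leaving out each library. Motifs and sequence comparisons used Biopython 1.88.

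The members and the gene lists were chosen with earlier results of these data known. Named were all 8 members, the other Sprr genes, from each list up to 4 called genes with the largest absolute log2 change and a mean log2 CPM of at least 0, a fixed set (among them Ivl, Tgm1, Krt13, Krt14, Elf3, Elf5, Klf4 and Cyp26b1), and the 10 genes of highest correlation with the members plus the top gene for each.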

Additional observations from a re-analysis of the deposited data

How the results depend on the processing

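The number of members called at 1 day after CP against saline on the vitamin A diet was 5, and was 3 with DESeq2, 4 with the replicate block and 2 to 5 when each library was left out. For 3 days against 1 day it was 0 on the normal diet and 1 with DESeq2. On the vitamin A diet it was 2, with 1 (Sprr2f) when only the groups compared were fitted and 1 to 3 when each library was left out. For 3 days against saline on the vitamin A diet it was 2, with 1 without the filter on low counts, 1 when only the groups compared were fitted, and 1 to 2 when each library was left out. Summed over the Sprr2 genes, CP at 1 day over saline on the normal diet was 1.25 on the log2 scale and 1.38 from FPKM. No result changed sign with its call under the alternatives run, and the causes of these shifts were not tested. Replicate numbers did not pair the mice: over 45 same-numbered pairs the correlation of deviations from group means was -0.123 to 0.197, against -0.173 to 0.207 over 90 other pairs. With the replicate block, Sprr2h and Sprr2j-ps (adjusted p = 0.0573) lost their calls at 1 day on the vitamin A diet, Ivl (0.0523) at 1 day on the normal diet, Krt13 (0.0675) between diets at 1 day and Krt78 (0.0675) at 3 days against 1 day on the vitamin A diet. Over all genes, the 90 called between diets at 1 day were 501 with DESeq2 and 2 when only the groups compared were fitted, and the 2271 called for CP at 1 day on the normal diet were 4463 in such a fit. The 819 called for 3 days against 1 day on the vitamin A diet were 1726 with DESeq2, 17 when only the groups compared were fitted, and 316 without mouse 3 of the 1-day group. Low counts of Sprr1b, Sprr2e, Sprr2h and Sprr3 limit their precision.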
